A study of Homo sapiens with 6 samples.

Results

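The genes described here are 31 that encode mTOR complexes and the nutrient sensing machinery around them, taken by name from the 18904 genes analysed in a genome-wide CRISPR interference (CRISPRi) screen for the level of an opioid receptor after agonist. By their known roles, 22 are activators of mTOR signalling and 9 are inhibitors, and the groups were kept apart throughout. The screen was done in clonal HEK293 FLP-In cells, a human embryonic kidney line. The cells carried dCas9-KRAB-BFP, an inactive Cas9 fused to a repressor that silences the promoter to which a single guide RNA (sgRNA) leads it, and a delta opioid receptor with a recycling tail and the peroxidase APEX2 (SSF-DORmct-APEX2), expressed from a stably integrated transgene. Cells were transduced with 1 of 3 sublibraries (H17, H23 or H456) at a multiplicity of about 0.2, selected with 0.75 μg/ml puromycin, grown for 8 days, given 10 μM DADLE, an opioid peptide, for 90 min, reacted with Amplex UltraRed and sorted on its fluorescence. The top and the bottom fluorescence quartile of each sublibrary gave 1 library each, 6 in all. Unsorted or untreated cells were not analysed here.

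The mechanistic target of rapamycin (mTOR) is a kinase that works in a pair of complexes. mTORC1, built on RPTOR, is brought to the lysosome by the Rag GTPases and their anchor Ragulator when amino acids are present, and is switched on there by the small GTPase RHEB. It then raises protein synthesis and restrains autophagy and lysosome biogenesis. GATOR1 turns the Rag GTPases off and is itself held in check by GATOR2, the TSC complex turns RHEB off, and FLCN with FNIP1 or FNIP2 acts on RRAGC and RRAGD. mTORC2, built on RICTOR, phosphorylates AKT.

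For each sgRNA, its share of the reads of the top library was divided by its share of the bottom library, and the log2 of this ratio, less the median over nontargeting control (NTC) sgRNAs, is called the phenotype. A negative phenotype means that cells with the sgRNA were more frequent in the bottom quartile, with less receptor signal. sgRNAs at one start site were averaged to give the gene phenotype, which is printed with their SD. These sgRNAs were ranked among the NTC sgRNAs in a Mann-Whitney U test, exact and two-sided, and P was adjusted by Benjamini-Hochberg over all 18904 genes. A gene was called a hit if a score from its phenotype and P exceeded a limit above which pseudogenes, made of NTC sgRNAs, were fewer than 10%. With 1 library per quartile and no repeat of the sort, the test takes sgRNAs as units and says nothing of the spread between cultures.

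Of the 31 genes, 16 had their sgRNAs in H23, 8 in H17 and 7 in H456. They had 153 analysed sgRNAs, 5 per gene for 29 genes and 4 for AKT1S1 and NPRL3, with 53 to 3554 reads in the top quartile and 135 to 3854 reads in the bottom quartile. Counting error alone gave these sgRNAs a median SD of 0.0646 on the log2 scale. Libraries held between 23426498 and 50486627 reads. The NTC sgRNAs spread more widely in H17 (SD 0.47) than in H23 (0.28) and H456 (0.30). The direction follows the sample titles, since the short library names given beside them carry the letter of the other quartile.

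CRISPRi acts at start sites, so the stretches before the starts of the genes to which the results below refer most are shown. They come from RefSeq (GRCh38.p14), where 25 of the 31 genes were matched by symbol. AKT1S1, DEPTOR, MLST8, RRAGA, RRAGD and WDR24 were not. For RPTOR (chr17:80544588-80544837, plus strand), NPRL3 (chr16:138674-138923, minus strand) and DEPDC5 (chr22:31753718-31753967, plus strand), these are the 250 bases upstream of the annotated start with the lowest coordinate. For TSC2 (chr16:2047835-2047984, plus strand) and NPRL2 (chr3:50350776-50350861, minus strand), they are the 150 and 86 bases that separate the start from that of a gene on the other strand, NTHL1 and CYB561D2. Capitals mark runs of G or of C of at least 2 bases, which hold the GG that the Cas9 of Streptococcus pyogenes needs next to its target, read on either strand.
RPTOR: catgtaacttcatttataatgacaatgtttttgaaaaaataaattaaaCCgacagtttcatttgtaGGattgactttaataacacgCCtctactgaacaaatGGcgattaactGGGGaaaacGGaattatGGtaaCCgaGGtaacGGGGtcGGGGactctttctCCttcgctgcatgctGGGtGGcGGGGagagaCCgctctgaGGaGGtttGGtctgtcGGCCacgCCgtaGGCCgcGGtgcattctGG
NPRL3: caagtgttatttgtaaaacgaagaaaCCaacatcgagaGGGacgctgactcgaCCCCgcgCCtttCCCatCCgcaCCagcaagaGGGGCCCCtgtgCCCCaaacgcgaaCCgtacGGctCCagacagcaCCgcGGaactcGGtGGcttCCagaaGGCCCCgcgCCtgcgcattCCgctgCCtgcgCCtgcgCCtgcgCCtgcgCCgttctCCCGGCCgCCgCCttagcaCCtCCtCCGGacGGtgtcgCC
DEPDC5: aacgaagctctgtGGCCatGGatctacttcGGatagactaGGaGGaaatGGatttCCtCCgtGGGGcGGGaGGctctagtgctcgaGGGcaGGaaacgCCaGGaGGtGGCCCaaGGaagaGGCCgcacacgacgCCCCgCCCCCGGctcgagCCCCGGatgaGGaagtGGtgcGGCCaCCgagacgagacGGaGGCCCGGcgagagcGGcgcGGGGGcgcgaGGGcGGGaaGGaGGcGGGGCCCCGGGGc
TSC2: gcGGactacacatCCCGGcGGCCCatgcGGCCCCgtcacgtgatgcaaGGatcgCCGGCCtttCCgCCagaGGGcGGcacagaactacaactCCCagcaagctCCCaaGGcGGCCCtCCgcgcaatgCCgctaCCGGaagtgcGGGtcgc
NPRL2: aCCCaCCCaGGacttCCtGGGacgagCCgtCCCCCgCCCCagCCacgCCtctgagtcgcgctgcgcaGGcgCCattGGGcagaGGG
Counted on both strands with overlaps, NGG sites numbered 35 before RPTOR, 50 before NPRL3 and 69 before DEPDC5, against a median of 59 for the matched genes and of 48 over all RefSeq windows of this length. At least 1 such site was in 99.99% of all windows. The stretch before RPTOR was also the poorest in G and C of the 5 shown, with 47.2% against a median of 64.8% for the matched genes and 58.0% over all windows. These counts describe the sequence and not the sgRNAs used, whose own bases are not shown.

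Cells with sgRNAs against activators mostly had a lower receptor signal and cells with sgRNAs against inhibitors mostly a higher one, by small amounts. Knockdown itself was not measured in these libraries. The members and their roles were chosen with earlier results of these data known, so the counts below describe the lists and are not a test. Of the 22 activators, 19 (86.4%) had a negative phenotype, where 49.6% of all genes did, and their median was −0.14, against 0.0013 for all genes. Of the 9 inhibitors, 8 had a positive phenotype, where 50.4% of all genes did, with a median of 0.15. No member of either group passed an adjusted exact p of 0.05, a threshold that 0.381% of all genes passed on the negative side and 0.0952% on the positive side. At an unadjusted exact p of 0.05, 3 activators (RPTOR, MIOS and LAMTOR2) passed on the negative side and 3 inhibitors (NPRL3, DEPDC5 and TSC2) on the positive side, against 4.06% and 4.07% of all genes. The 1 hit by the pseudogene threshold was RPTOR, on the side where 0.698% of all genes were hits. No inhibitor was a hit, and on the positive side 0.19% of all genes were hits.

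**Figure D1:**
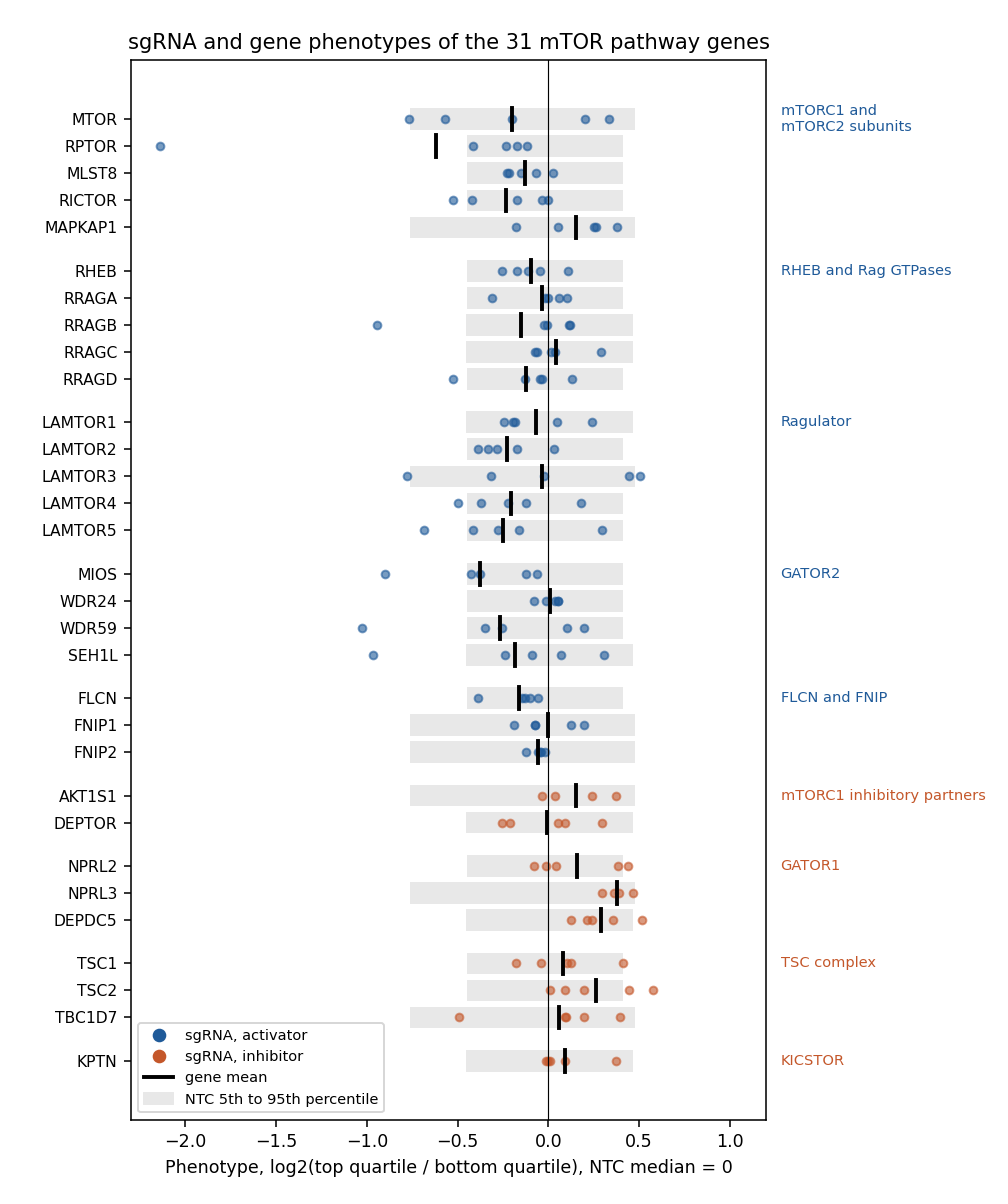
Phenotype (log2 of top over bottom quartile, NTC median at 0) of each of the 153 analysed sgRNAs (points, blue for activators and orange for inhibitors), with the gene mean (black bar) and the range from the 5th to the 95th percentile of NTC sgRNAs in the same sublibrary (grey). The 1 sgRNA far to the left belongs to RPTOR, at −2.14, and the means of all GATOR1 and TSC complex genes lie above 0.

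**Figure D2:**
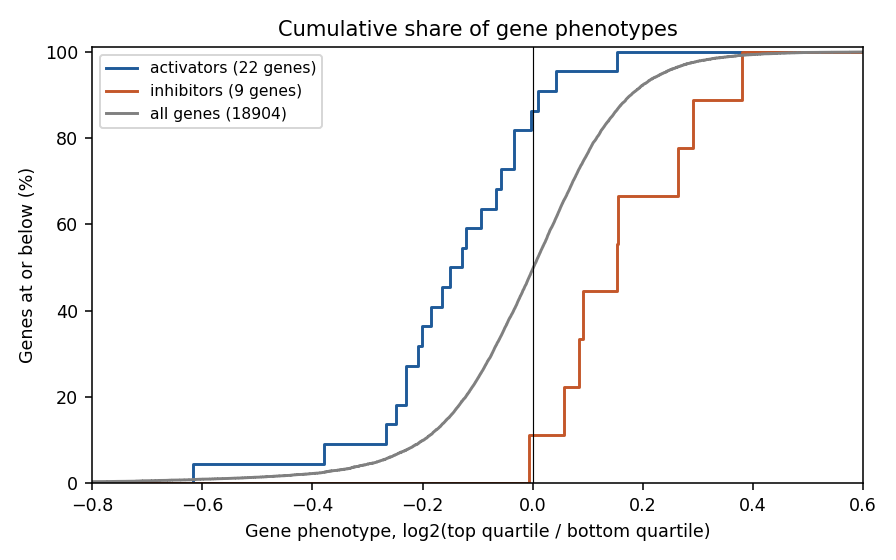
Cumulative share of genes (percent) at or below a gene phenotype (log2 of top over bottom quartile) for 22 activators, 9 inhibitors and all 18904 genes. At 0 the activator curve has reached 86.4%, the inhibitor curve 11.1% and that of all genes 49.6%.

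The same held for single sgRNAs. Of 110 sgRNAs against activators, 78 (70.9%) were negative, and of 43 against inhibitors 33 were positive, whereas 48.9% of the sgRNAs of all genes were negative. Below the 5th NTC percentile lay 11 of 110 activator sgRNAs (10.0%), each against a different gene, and none of the 43 inhibitor sgRNAs, against 5.14% over all genes. Above the 95th percentile lay 1 activator sgRNA (0.909%), against LAMTOR3, and 5 inhibitor sgRNAs (11.6%), against 5.05% over all genes. All sgRNAs were negative for 5 activators (RPTOR, RICTOR, MIOS, FLCN and FNIP2), as for 4.45% of all genes, and positive for 3 inhibitors (NPRL3, DEPDC5 and TSC2), as for 5.37% of all genes. sgRNAs of 1 gene are not independent of each other, since 72 of the 153 lay within 20 bases of another against the same gene. Without the genes of H17, 15 of 17 activators were negative with a median of −0.16, and 5 of 6 inhibitors were positive with a median of 0.12.

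Among the subunits of both mTOR complexes, 4 of 5 had a negative phenotype, and the largest was that of RPTOR, the mTORC1 scaffold that recruits substrates. Its sgRNAs had 1.12, 9.96, 43.77, 27.82 and 14.86 RPM (reads per 1000000 analysed reads) in the top quartile and, in the same order, 4.89, 13.16, 50.91, 31.04 and 15.99 in the bottom quartile. Each of the 5 was thus rarer in the top quartile. The phenotypes were −2.14, −0.42, −0.23, −0.17 and −0.12, a mean of −0.62 ± 0.86 (5 sgRNAs, SD, exact p = 0.00538, adjusted p = 0.294). The strongest sgRNA rested on 53 reads in the top quartile and 197 in the bottom quartile, the lowest numbers of any RPTOR sgRNA, with a counting SD of 0.22. With the strongest sgRNA of every gene left out, RPTOR averaged −0.24 (exact p = 0.0331) and was no longer a hit, nor was it with the median over sgRNAs, −0.23.

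MTOR itself, the kinase shared by both complexes, had phenotypes of −0.77, −0.57, −0.20, 0.20 and 0.34, a mean of −0.20 ± 0.48 (SD over 5 sgRNAs, exact p = 0.517). Its sgRNAs thus lay on both sides of 0, in the sublibrary with the widest NTC spread. RICTOR, the scaffold of mTORC2, had phenotypes of −0.53, −0.42, −0.17, −0.03 and −0.0014, a mean of −0.23 ± 0.23 (exact p = 0.0569), and MLST8, a subunit of both complexes, averaged −0.13 ± 0.11. MAPKAP1, the mTORC2 subunit also known as SIN1, was the exception, at 0.15 ± 0.22. It is the 1 gene of the 31 with sgRNAs at a pair of separate start sites, and at its other site all 5 sgRNAs were negative, with a mean of −0.12 ± 0.14 (SD, exact p = 0.311).

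At the lysosome, all 5 Ragulator subunits had negative means, with a median of −0.21. The largest were LAMTOR5 (−0.25 ± 0.36), LAMTOR2 (−0.23 ± 0.17) and LAMTOR4 (−0.21 ± 0.26), all in H23, whereas LAMTOR1, the subunit that anchors the complex to the membrane, averaged −0.07 ± 0.21 in H456 and LAMTOR3 −0.03 ± 0.54 in H17 (SD over 5 sgRNAs each). The sgRNAs of LAMTOR3 ran from −0.78 to 0.50. LAMTOR2 sgRNAs had 26.28, 18.50, 17.93, 10.00 and 44.57 RPM in the top quartile, against 34.10, 23.05, 21.63, 11.15 and 43.14 in the bottom quartile. Thus 4 of 5 were rarer in the top quartile, by −0.39 to −0.17 on the log2 scale, and the fifth was at 0.03 (exact p = 0.0274, adjusted p = 0.52).

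The GTPases themselves stood closer to 0, with a median of −0.09. RHEB, which switches mTORC1 on, had phenotypes of −0.25, −0.17, −0.11, −0.04 and 0.11, a mean of −0.09 ± 0.14 (SD over 5 sgRNAs, exact p = 0.32). The Rag GTPases form dimers of RRAGA or RRAGB with RRAGC or RRAGD. RRAGA averaged −0.03 ± 0.16, RRAGB −0.15 ± 0.45, RRAGC 0.04 ± 0.15 and RRAGD −0.12 ± 0.25. The mean of RRAGB was set by 1 sgRNA at −0.94, without which it was 0.05.

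GATOR2, which restrains GATOR1, had a median of −0.22 over its 4 subunits among the members, with MIOS the lowest. MIOS sgRNAs had 8.35, 30.1, 39.6, 38.9 and 32.1 RPM in the top quartile, against 15.4, 40.1, 51.0, 42.0 and 33.1 in the bottom quartile. All 5 were rarer in the top quartile, and the mean was −0.38 ± 0.33 (SD, exact p = 0.00754, adjusted p = 0.34), lower than in all but 2.58% of genes. WDR59 averaged −0.27 ± 0.48 with sgRNAs from −1.03 to 0.20, and SEH1L, which is also a nucleoporin, −0.18 ± 0.48 with sgRNAs from −0.97 to 0.31. WDR24 differed from these, since its 5 sgRNAs all lay between −0.08 and 0.05, with a mean of 0.01 ± 0.06. FLCN, the GTPase activator for RRAGC and RRAGD, was negative with each of 5 sgRNAs and averaged −0.16 ± 0.13 (exact p = 0.0903). Its partners FNIP2 (−0.06 ± 0.04) and FNIP1 (−0.0035 ± 0.16) lay close to 0.

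**Figure D3:**
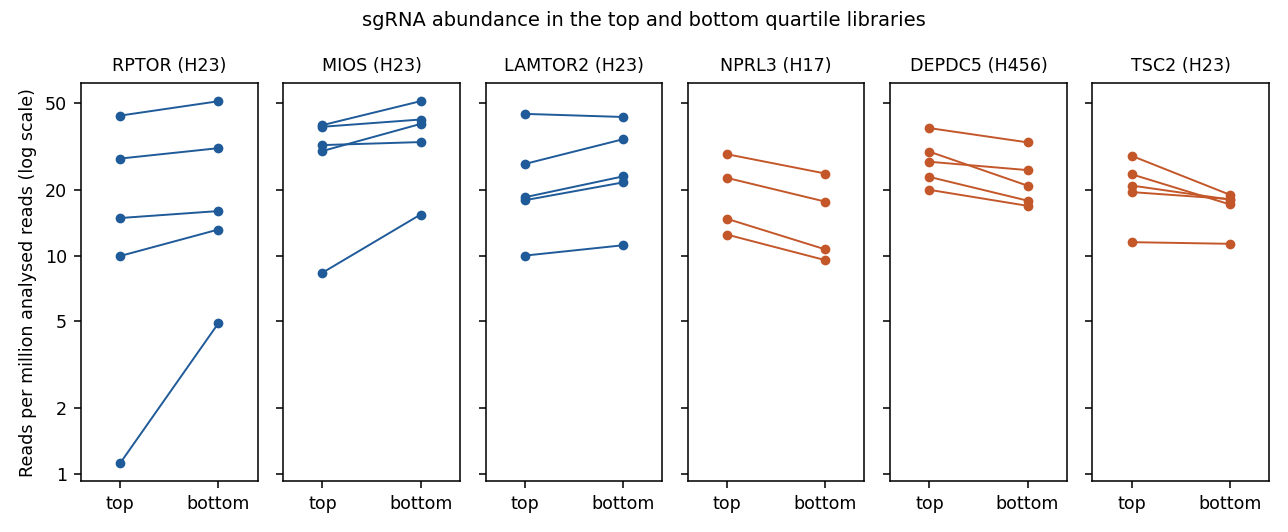
Frequency (RPM, log axis) of each sgRNA (1 line each) in the top and the bottom quartile library for the 3 activators and 3 inhibitors with an unadjusted exact p under 0.05. All lines of RPTOR and MIOS run up towards the bottom quartile and all lines of NPRL3, DEPDC5 and TSC2 run down, while 1 of the 5 LAMTOR2 lines runs down.

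GATOR1, the complex that turns the Rag GTPases off, had the highest median of the groups described. Its 3 subunits were all positive, with a median of 0.29, and each was measured in another sublibrary. NPRL3 sgRNAs had 29.1, 22.7, 12.5 and 14.7 RPM in the top quartile of H17, against 23.8, 17.7, 9.53 and 10.7 in the bottom quartile. All 4 were more frequent in the top quartile by similar amounts (0.30, 0.36, 0.39 and 0.47). Their mean of 0.38 ± 0.07 (4 sgRNAs, SD, exact p = 0.00136, adjusted p = 0.151) was higher than in 99.2% of genes of all sublibraries. H17 itself leaned to the positive side, where 318 of its 5899 genes had an unadjusted exact p under 0.05, against 132 on the negative side. Each of the 4 sgRNAs lay below the 95th NTC percentile of H17, 0.48. The 4 NPRL3 sgRNAs lay within 21 bases of each other, each with 2 or 3 of the others within 20 bases, and are therefore not independent. A further NPRL3 sgRNA, left out for its low reads, had 18 in the top quartile and 13 in the bottom quartile and a phenotype of 0.79. With it, the adjusted exact p of NPRL3 was 0.0376.

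DEPDC5, the largest GATOR1 subunit, had 26.9, 38.4, 20.0, 22.9 and 29.9 RPM in the top quartile of H456, against 24.6, 33.0, 16.9, 17.9 and 20.9 in the bottom quartile. Its 5 sgRNAs, at positions spread over 423 bases, were all more frequent in the top quartile, with phenotypes of 0.12, 0.21, 0.24, 0.36 and 0.51 and a mean of 0.29 ± 0.15 (SD, exact p = 0.00412, adjusted p = 0.264). NPRL2, which holds the catalytic arginine of the complex and was in H23, averaged 0.16 ± 0.24 (exact p = 0.215). Its highest sgRNAs, at 0.38 and 0.44, were a pair 35 bases apart, and the others had −0.08, −0.01 and 0.04.

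Of the TSC complex, TSC2, the subunit that turns RHEB off, had 11.5, 19.5, 20.9, 23.6 and 28.6 RPM in the top quartile, against 11.3, 18.2, 18.1, 17.2 and 19.0 in the bottom quartile. Each was more frequent in the top quartile, by 0.01, 0.09, 0.20, 0.44 and 0.58, and the mean was 0.26 ± 0.24 (5 sgRNAs, SD, exact p = 0.0279, adjusted p = 0.523). The highest phenotypes came from a pair 7 bases apart. TSC1, which stabilizes TSC2, had phenotypes of −0.18, −0.04, 0.10, 0.12 and 0.41 and a mean of 0.08 ± 0.22 (exact p = 0.478). TBC1D7, the third subunit, averaged 0.06 ± 0.33. The other inhibitors were near 0 or variable. AKT1S1 (PRAS40), an inhibitory partner of mTORC1, averaged 0.15 ± 0.19 over 4 sgRNAs. A further sgRNA of AKT1S1, left out for its low reads, had 2 in the top quartile and 0 in the bottom quartile. With a minimum of 1 read for the sgRNAs of all genes, which takes this one in, the mean was 0.51. DEPTOR, an inhibitor of both complexes, averaged −0.006 ± 0.23, and KPTN, a subunit of the KICSTOR complex that holds GATOR1 at the lysosome, 0.09 ± 0.16 with 4 of 5 sgRNAs between −0.02 and 0.09.

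**Figure D4:**
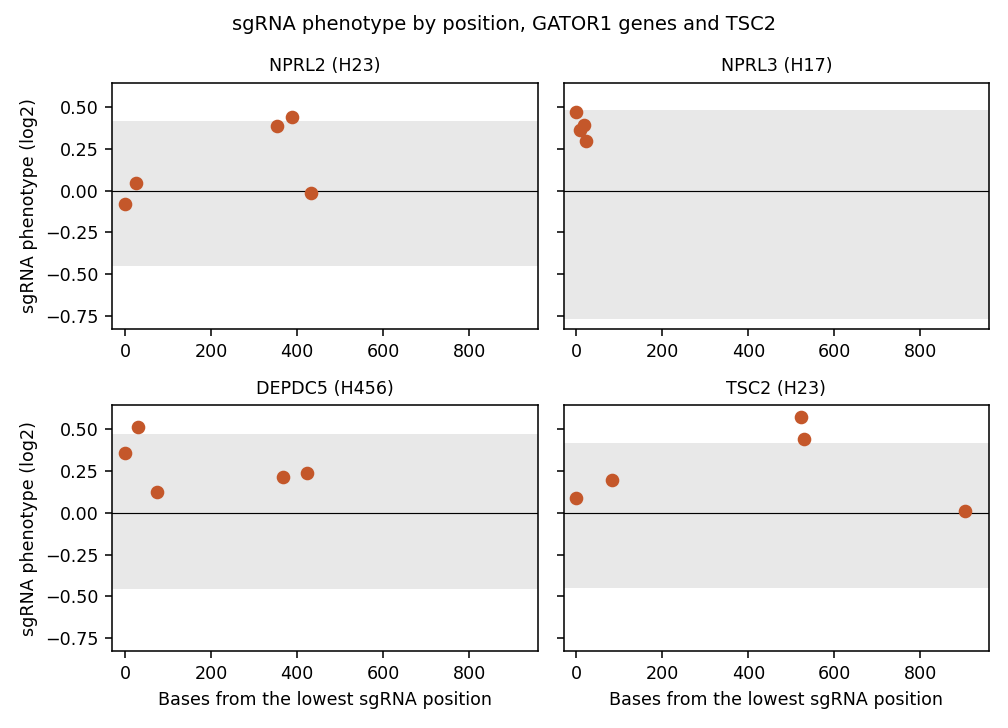
sgRNA phenotype (log2 of top over bottom quartile) against the distance in bases from the lowest sgRNA position, for the 3 GATOR1 genes and TSC2, with the 5th to 95th percentile of the NTC sgRNAs in grey. The 4 NPRL3 sgRNAs crowd within 21 bases, those of DEPDC5 spread over 423 bases, and the highest TSC2 sgRNAs are a pair near the middle.

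Some of these genes share their promoter region with a neighbour, which the same sgRNA may silence. Within 1 kb of the sgRNAs of 3 members lay sgRNAs of another gene. NTHL1, a DNA repair enzyme whose start faces that of TSC2, had sgRNAs as near as 42 bases to those of TSC2 and averaged 0.20 ± 0.13 (5 sgRNAs, SD, exact p = 0.0416, adjusted p = 0.582), positive with all 5. The part of either gene in the phenotype of the other cannot be told apart. CYB561D2, which faces NPRL2 across the 86 bases shown above, averaged −0.03 ± 0.23. Of its 5 sgRNAs, 1 is listed by the library for NPRL2 as well and was not used for NPRL2. It had a phenotype of 0.10 with 1067 reads in the top quartile and 1700 in the bottom quartile of H456. TBC1D17, next to AKT1S1, averaged 0.05 ± 0.16.

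The share of reads in the top library plus that in the bottom library gave the abundance of each sgRNA in the sorted cells, relative to the NTC sgRNAs. Since no library from before growth was analysed, loss of cells and the make-up of the sgRNA library cannot be told apart. At an adjusted exact p of 0.05, no member had a lower or a higher abundance than the NTC sgRNAs, against 0.0793% and 0.175% of all genes. At an unadjusted exact p of 0.05, 3 members passed, TSC2 on the lower side (−0.61 ± 0.40 on the log2 scale, p = 0.044) and RRAGC (0.83 ± 0.55, p = 0.0138) and RRAGA (0.39 ± 0.80, p = 0.0425) on the higher side (SD over 5 sgRNAs each), where 6.5% of all genes passed on the lower and 5.49% on the higher side. RPTOR averaged −0.90 ± 1.52 (exact p = 0.225), and the sgRNA with the strongest phenotype was also its rarest, at −3.22. The GATOR1 genes NPRL3, NPRL2 and DEPDC5 averaged −0.68 ± 0.59, −0.24 ± 0.73 and 0.0015 ± 0.37, and none passed the test.

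Around these complexes, 55 further genes of the pathway were measured, from 6 lists. The TTT complex and the R2TP ATPases, which assemble mTOR and related kinases, were negative in 5 of 5 genes with a median of −0.25, where 49.6% of all genes were negative. Their sgRNAs were less uniform, with 16 of 25 negative (64%), against 48.9% of the sgRNAs of all genes. TTI1 was a hit at −0.89 ± 0.60 (5 sgRNAs, SD, adjusted exact p = 0.0498). TELO2 averaged −0.34 ± 0.37 and TTI2 −0.25 ± 0.34, and neither passed a test. Of 15 outputs of mTORC1, 10 were negative with a median of −0.02. EIF4E, the cap-binding protein that mTORC1 frees for translation, was a hit at −0.73 ± 0.52 (adjusted exact p = 0.0518), whereas TFEB, a lysosomal transcription factor that mTORC1 keeps out of the nucleus, averaged 0.24 ± 0.23 (unadjusted exact p = 0.0364) and GRB10, an adaptor that mTORC1 phosphorylates, −0.19 ± 0.26.

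The remaining lists held no gene past either threshold. Many of their genes were in H17, 7 of 9 for insulin and PI3K input and 8 of 9 for AMPK and LKB1, and all genes of H17 together had 45.0% negative and a median of 0.02. Of 9 genes of insulin and PI3K input, 7 were positive with a median of 0.16, and PIK3CA, the catalytic subunit of a PI3 kinase, (0.33 ± 0.28) and IGF1R, a growth factor receptor (0.27 ± 0.17) had unadjusted exact p of 0.0111 and 0.0123. Of 10 further GATOR2, KICSTOR and nutrient sensor genes, 7 were positive with a median of 0.08. SEC13, a further GATOR2 subunit, was not among these 7 and averaged −0.13 ± 0.21, negative with 4 of 5 sgRNAs (unadjusted exact p = 0.221). CASTOR1, the arginine sensor that binds GATOR2 (GATSL3 in the library), averaged 0.32 ± 0.13, positive with all 5 sgRNAs (unadjusted exact p = 0.00298, adjusted p = 0.224), and KICS2 (C12orf66 in the library) 0.20 ± 0.16. Of 9 genes of AMPK and LKB1, 6 were positive with a median of 0.07, with PRKAG1 at 0.24 ± 0.10 and STK11 at 0.19 ± 0.09. Of 7 genes of mTORC2 and its AGC kinases, 4 were negative with a median of −0.0085. AKT2 averaged −0.55 ± 0.57 (unadjusted exact p = 0.0158).

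The direction of both medians held in every processing tried. Over 13 other settings, the activator median ran from −0.21 to −0.05, with 16 to 21 of 22 genes negative, and the inhibitor median from 0.08 to 0.22, with 8 or 9 of 9 genes positive. The lowest of these in size came from leaving out the strongest sgRNA of each gene.

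**Figure D5:**
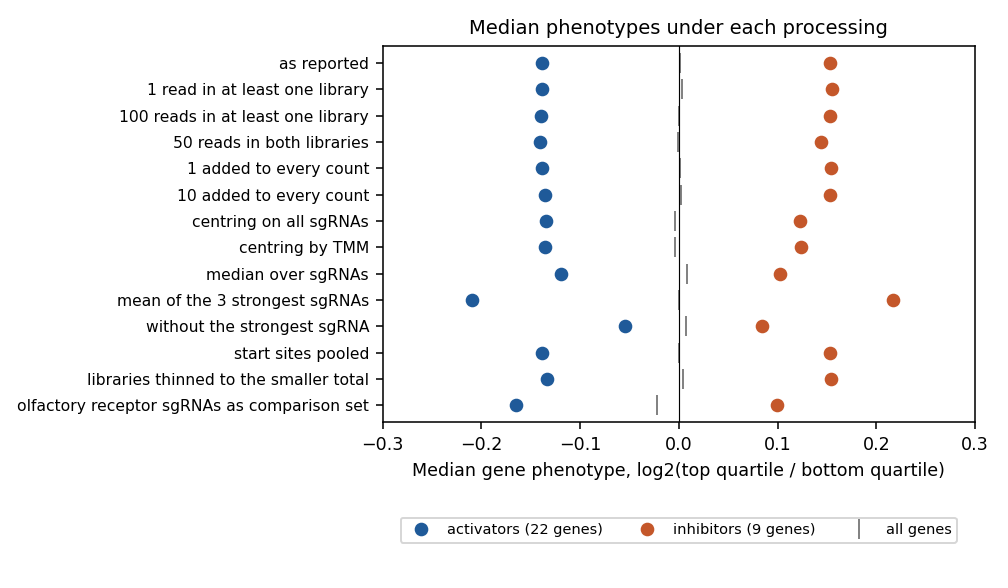
Median gene phenotype (log2 of top over bottom quartile) of 22 activators, 9 inhibitors and all genes under the processing reported (top row) and 13 alternatives. Every activator median lies below 0 and every inhibitor median above 0, with the smallest activator median, −0.05, when the strongest sgRNA of each gene was left out.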

How the data were processed

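Genomic DNA of each sorted quartile was amplified for the integrated sgRNAs and sequenced. The authors cropped the reads, counted them per sgRNA with ScreenProcessing and deposited raw counts, not normalized, of 209070 sgRNAs per library. PCR reads carried no molecular identifiers, so counting SDs cover counting error only. Times are those of the labels. The methods state a shorter knockdown for the sort and a longer agonist treatment for the intact cell assay. For the positions in the sgRNA names no genome build was found in the sources, so only distances between sgRNAs are reported.

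A gene was assigned to the sublibrary with most of its reads. sgRNAs with at least 50 reads in either library and at least 10% of their reads in that sublibrary were analysed, which took in 96.2% to 98.6% of the reads of each library. If either count of an sgRNA was 0, both were raised by 1. The start site with the lower P stood for a gene. Pseudogenes were 5 NTC sgRNAs each, as many as genes, drawn with seed 1. The score was the size of the phenotype over the pseudogene SD, times −log10 of the Mann-Whitney P (normal approximation), with a threshold per sublibrary. Computations used Python 3.11.15 with numpy 2.4.6, pandas 2.3.3 and scipy 1.17.1, and R 4.3.3 with edgeR 4.0.16 for TMM factors only, since 1 library per group leaves no residual degrees of freedom for a count model. Simulated data served only to check the steps. Recovery of effects as small as the activator and inhibitor medians is not reported, so this check says nothing of power at that size.

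The members, their roles and the pathway lists were chosen with earlier results of these data known. Every member was named with its phenotype, and per-sgRNA values were given for members past the pseudogene threshold or an unadjusted exact p of 0.05, and for MTOR, RPTOR, RICTOR, RHEB, TSC1 and TSC2. From each pathway list, genes past either threshold and at most 2 more with the lowest exact p were named. SEC13 was named in addition, as a GATOR2 subunit outside the members. CASTOR2, also on the lists, was not matched. Other sgRNA values were chosen after they were seen. Alternatives were 3 other read minima, 2 added counts, 2 other centrings, the median, the 3 strongest or all but the strongest sgRNA, pooled start sites, thinned libraries, sgRNAs against olfactory receptor genes in place of NTC sgRNAs, and for hits other thresholds and pseudogene draws. Leaving out the genes of H17 was added after seeing the data.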

Additional observations from a re-analysis of the deposited data

How the results depend on the processing

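With 1 library per quartile there was no replicate to leave out. The phenotype sets the top quartile against the bottom quartile of the same sublibrary. With 1 such pair per sublibrary, no test over pairs was possible. Of 403 gene phenotypes recomputed under 13 alternatives, 391 kept their sign, and 21 of 31 genes had no change of sign. The other 12 turned. Without the strongest sgRNA of each gene, RRAGA was 0.0346, RRAGB 0.0495, LAMTOR3 0.1527, SEH1L 0.0116 and RRAGC −0.0207. With the mean of the 3 strongest sgRNAs, LAMTOR3 was 0.057 and FNIP1 0.0438, and with the median over sgRNAs DEPTOR was 0.0512. Against olfactory receptor sgRNAs, MAPKAP1 was −0.18 (the other start site then had the lower P), WDR24 −0.0159, TBC1D7 −0.0047 and DEPTOR 0.0021.

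The number of members past the pseudogene threshold, 1 as reported, was 0 with the median over sgRNAs and 0 without the strongest sgRNA. It was 4 against olfactory receptor sgRNAs (RPTOR, RICTOR, LAMTOR2 and MIOS), where hits over all genes numbered 418 negative and 131 positive, against 132 and 36 as reported, and 2 with pseudogene seed 2 (RPTOR and MIOS). RPTOR was a hit in 10 of 10 other pseudogene draws. At an adjusted exact p of 0.05, 1 member in place of 0 passed with a minimum of 1 read, NPRL3. Leaving out the strongest sgRNA, which lowers the number tested per gene, left 20 negative and 2 positive genes past that threshold, against 72 and 18 as reported. For abundance, 1 member in place of 0 passed against olfactory receptor sgRNAs, where 182 genes were lower and 1187 higher in all. The cause of these differences was not tested.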
